A study of Mus musculus with 5 samples.

Results

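The cardiac myosin genes are 9 of the 25017 gene symbols in a table of peaks of H3K4-enriched chromatin from newborn mouse cardiomyocytes. They are the heavy chains Myh6, Myh7 and Myh7b, the light chains Myl2, Myl3, Myl4 and Myl7, the light chain kinase Mylk3 and the myosin binding protein Mybpc3. They were taken by gene symbol and not by a cut on their values, but with earlier results of these data known. They hold 40 of the 85275 peaks. The main peak of a gene is the one with the highest mean over the H3K4 libraries, and 28 other member peaks reached at least 1 CPM, the unit of the deposited table, which scales the reads of a peak to the library's total over all peaks, in at least 2 of these libraries. Of the remaining 3 member peaks, 1 is assigned to Mylk3 and 2 to Mybpc3, and these were too low to be tested.

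A sarcomere's thick filament is built from myosin, in which each heavy chain carries a motor head and binds 1 essential and 1 regulatory light chain. Myh6 encodes the fast alpha heavy chain and Myh7 the slow beta heavy chain, and in the mouse ventricle the alpha chain replaces the beta chain around birth. Myl4 (essential) and Myl7 (regulatory) are the light chains of atrial muscle, whereas Myl3 (essential) and Myl2 (regulatory) are those of ventricular muscle. Methylation of lysine 4 of histone H3 marks promoters and enhancers, and Kdm5b encodes an enzyme that removes it from promoters.

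CUT&RUN, in which a nuclease held by an antibody releases the DNA around a chromatin mark, was run on cardiomyocytes isolated from mouse hearts at postnatal day 1. The cells had been treated for 72 h with a short hairpin RNA reagent against Kdm5b (Kdm5b-ShRNA-IL) or with its control (Control-ShRNA-IL). There were 2 knockdown libraries, 2 control libraries and 1 negative control library, the last made from control-treated cells. The series title asks about cell-cycle genes, so the myosin genes are the contractile side of the same cells. No source used here gives the mouse strain, the antibody of the negative control or which methylation state was targeted. A number in the cell type label runs from P1 to P5 over the 5 libraries, while the protocol gives postnatal day 1 for all. If that number were an age, age and knockdown could not be told apart. Whether libraries of the same group stem from separate cultures is not stated, so the p-values measure a spread between libraries that may be only technical.

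Reads in peaks numbered 21285387 and 31068085 in the knockdown libraries (called 3 and 4 after their columns), 18710132 and 19001373 in the control libraries 3 and 4, and 3784381 in the negative control. The Kdm5b peak on chromosome 1 (134483258 to 134485368, GRCm39) held 40.7 and 46.2 CPM in knockdown, 46.3 and 43.6 CPM in control and 21.9 CPM in the negative control. A hairpin acts on the transcript, so this peak does not measure the knockdown. Peaks under 500 bp took 5.63% and 3.64% of the reads in knockdown, 6.65% and 5.79% in control and 21.9% in the negative control, so the libraries differ in how their reads are spread over peaks. In bulk chromatin, fewer cells of a type and less mark per cell cannot be told apart.

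Myosin heavy chain genes carry microRNAs in their introns, and their mature forms are shown because peaks near Myh6 and Myh7b are assigned to these microRNA genes. In the RefSeq annotation of GRCm38.p6, miR-208a lies within Myh6 (chr14:54949072-54949093, minus strand), miR-208b within Myh7 (chr14:54975710-54975731, minus strand) and miR-499 within Myh7b (chr2:155622893-155622913, plus strand). Capitals mark the seed, bases 2 to 8.
mmu-miR-208a-3p: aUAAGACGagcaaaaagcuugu
mmu-miR-208b-3p: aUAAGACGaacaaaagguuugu
mmu-miR-499-5p: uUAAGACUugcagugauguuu
The seeds of miR-208a and miR-208b are equal in 7 of 7 bases, and each equals that of miR-499 in 6 of 7. Counted by position from the first base, the whole miR-208a and miR-208b are equal at 19 of 22 positions.

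The 250 bases before the transcription start of 3 members are shown because their peaks give the main contrasts of level below: Myh6 with the highest peak, Myh7 with the lowest, and Mybpc3, whose peak was lower in knockdown beside that of Myh6. Capitals mark matches on either strand. The letters searched were GATAAG for the site of GATA factors, CATTCC for the MCAT site of TEAD factors and TATAAA for the TATA box, and the MEF2 site and the CArG box were searched too. A base shared by overlapping motifs would count for each.
Myh6 (RefSeq, GRCm38.p6, chr14:54966608-54966857, minus strand): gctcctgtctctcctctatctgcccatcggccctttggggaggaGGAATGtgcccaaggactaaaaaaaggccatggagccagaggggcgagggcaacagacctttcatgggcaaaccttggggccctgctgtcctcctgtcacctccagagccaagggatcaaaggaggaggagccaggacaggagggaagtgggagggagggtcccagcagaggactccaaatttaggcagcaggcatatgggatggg
Myh7 (RefSeq, GRCm38.p6, chr14:54994627-54994876, minus strand): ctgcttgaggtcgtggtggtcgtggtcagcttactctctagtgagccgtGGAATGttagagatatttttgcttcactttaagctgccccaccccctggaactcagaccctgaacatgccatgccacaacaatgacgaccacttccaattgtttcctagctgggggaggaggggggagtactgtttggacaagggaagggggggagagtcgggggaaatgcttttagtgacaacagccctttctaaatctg
Mybpc3 (RefSeq, GRCm38.p6, chr2:91117894-91118143, plus strand): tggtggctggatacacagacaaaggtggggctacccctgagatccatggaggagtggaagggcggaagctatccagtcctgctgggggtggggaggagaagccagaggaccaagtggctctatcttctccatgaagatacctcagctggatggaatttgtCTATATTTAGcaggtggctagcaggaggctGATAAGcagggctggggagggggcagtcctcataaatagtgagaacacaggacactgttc
The windows printed for Myh6 and Myh7 each hold 1 MCAT match, and that of Mybpc3 holds 1 MEF2 and 1 GATA match. A second Myh7 window (chr14:54994550-54994799), not printed, holds no MCAT match. All 9 members matched RefSeq, with 12 windows in all, and 5 of the 12 windows hold an MCAT match (1 each of Myh6, Myh7, Myl3, Myl7 and Mylk3), beside 12.6% of 32851 RefSeq windows of this length. A GATA match is in 3 of the 12 windows (Mybpc3, Myl7 and Mylk3) and in 6.55% of all, a CArG box in 2 (Myl3 and Myl7) and in 1.47%, a MEF2 match in 1 (Mybpc3) and in 0.508%, and a TATA box in 1 (Myl2) and in 12.4%. The E-box CANNTG, also searched but left in lower case, is in 10 of the 12 and in 66.2% of all. These are letter matches, not binding sites. The deposited peaks are on GRCm39, so the windows were not placed on the peaks.

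Across the 9 genes the knockdown libraries were slightly lower than control at the main peaks of Myh6, Mybpc3 and Myh7b, and no member peak was higher. The test was limma on log2(CPM + 1) over 58072 peaks, with Benjamini-Hochberg adjustment and a threshold of 0.05, so every adjusted p below is over all these peaks. Lower calls numbered 3 of the 9 main peaks and higher calls 0, where 1.98% of the main peaks of all genes were called lower and 3.4% higher. An unadjusted limma p under 0.05 was reached by 5 of the 9, and by 9653 of all 58072 tested peaks. Both knockdown libraries lay below both control libraries at 6 of the 9 (Myh6, Myh7b, Myl2, Myl4, Mylk3 and Mybpc3), which held for 25.9% of the main peaks of all genes, while 25.6% had both knockdown libraries above. High and wide peaks as a class leaned the other way. Of tested peaks of at least 20 CPM, which the main peaks other than Myh7 and Myh7b reach, 2.67% were called lower and 6.3% higher, and the knockdown pair lay below the control pair at 15.5% and above it at 41.9%. Of peaks of at least 5 kb, 4.88% were called lower and 12.6% higher, with 17.8% below and 48.9% above. The members' log2 fold changes ran between -0.48 and -0.03 with a median of -0.13, beside a median of -0.01 over the main peaks of all genes and -0.14 over all tested peaks. All 9 fold changes were negative on the deposited CPM, 7 of 9 with TMM scaling, where none was called, and 2 of 9 with median centring, with scaling on narrow background peaks and with DESeq2. Those scalings move the median of all peaks too, by 0.07 (TMM), 0.24 (median centring), 0.31 (narrow background peaks) and 0.15 (DESeq2) on the log2 scale. Relative to the median of peaks of at least 20 CPM, the members' median was -0.18 on the deposited CPM and -0.18 with TMM, median centring and narrow background peaks. Each of these scalings applies the same factor to every peak of a library, so members and reference peaks move together. This difference was therefore nearly fixed in advance and does not test whether the lower level depends on the scaling.

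**Figure D1:**
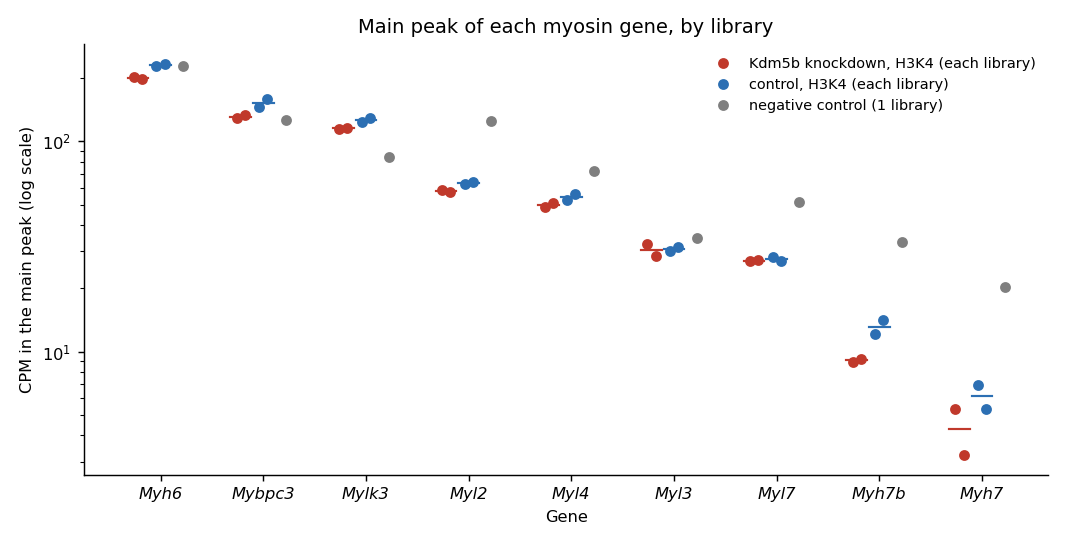
CPM in the main peak of each gene on a log scale, with 1 point per library and a line at the mean of each pair, in the order knockdown, control and negative control. Myh6 stands highest near 200 CPM and Myh7 lowest, between 3.22 and 6.95 CPM in the H3K4 libraries, and for Myl2, Myl3, Myl4, Myl7, Myh7b and Myh7 the negative control point lies above all 4 H3K4 points.

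Myh6, the alpha heavy chain, had 1 peak, the highest and widest of the group. The peak covers 11642 bp (chromosome 14, 55197771 to 55209412, GRCm39) and ranks 211 of 25017 genes by height and 81 of 85275 peaks by width. It held 202.4 and 198.4 CPM in knockdown, 227.8 and 233.9 CPM in control and 228.6 CPM in the negative control (exact Poisson 95% interval 213.6 to 244.3, counting error only). Both knockdown libraries lay below both control libraries, and the control libraries were at the level of the negative control. The mean was 200.4 ± 2.82 CPM in knockdown and 230.8 ± 4.30 CPM in control (SD, n = 2 each), a log2 fold change of -0.20 with an SE of 0.04 (limma adjusted p = 0.000814). The call was lost without knockdown library 4 (adjusted p = 0.0657) and without control library 4 (adjusted p = 0.0779). The log2 fold change was -0.09 with TMM (adjusted p = 0.792), 0.04 with median centring, 0.25 with narrow background peaks and 0.01 with DESeq2, so its sign depends on the scaling.

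Myh7, the beta heavy chain, lies beside Myh6 and had little signal in any H3K4 library. Its main peak of 842 bp (chromosome 14, 55230059 to 55230900) starts 20.6 kb beyond the end of the Myh6 peak and ranks 14509 of 25017 genes by height. It held 5.36 and 3.22 CPM in knockdown, 6.95 and 5.32 CPM in control and 20.3 CPM in the negative control (95% interval 16.1 to 25.4). The knockdown and control libraries overlapped, and the negative control was above all of them. The log2 fold change of -0.45 (SE 0.18) missed the threshold (limma adjusted p = 0.171) and rests on between 100 and 130 reads per H3K4 library. A second Myh7 peak (55241608 to 55242503) held 3.52 and 4.02 CPM in knockdown, 3.96 and 5.58 CPM in control and 14.3 CPM in the negative control. The third, 55229489 to 55229773, held 1.55 and 1.64 CPM in knockdown, 1.82 and 2.05 CPM in control and 6.87 CPM in the negative control. Myh6 and Myh7 are closely similar in sequence, and how reads matching both were treated is not given in the sources used here, so their levels are uncertain to that extent.

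Per kb of peak, Myh6 carried 17.2 ± 0.242 CPM in knockdown and 19.8 ± 0.370 CPM in control, and Myh7 carried 5.09 ± 1.79 CPM in knockdown and 7.28 ± 1.37 CPM in control (SD, n = 2 each). In the negative control the order was turned round, with 19.6 CPM per kb at Myh6 and 24.2 CPM per kb at Myh7. The ratio of Myh6 to Myh7 within a library does not depend on how libraries are scaled. It was 37.8 and 61.6 in knockdown, 32.8 and 44.0 in control and 11.2 in the negative control. The means of 49.7 ± 16.9 in knockdown and 38.4 ± 7.93 in control differed by 0.35 on the log2 scale, less than the spread between libraries (2-sided exact permutation test, p = 0.667, where the smallest possible is 0.33). Without knockdown library 4 the difference was -0.01. With all peaks of each gene summed the ratio was 19.4 and 22.3 in knockdown, 17.9 and 18.1 in control and 5.51 in the negative control (exact permutation p = 0.33, the smallest possible). Only peaks assigned to the symbols Myh6 and Myh7 were summed, not those assigned to Mir208b.

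**Figure D2:**
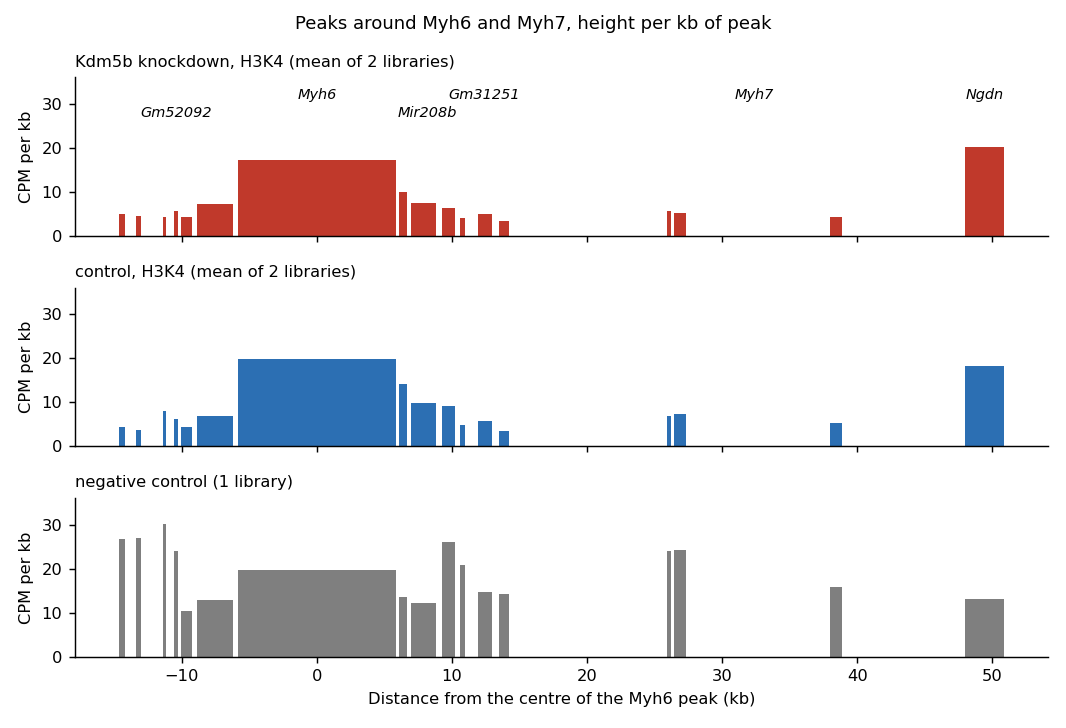
CPM per kb of peak (y axis) against distance from the centre of the Myh6 peak in kb (x axis), for the means of the knockdown and control libraries and for the negative control, where each bar is 1 peak and its width the peak's width. In the H3K4 panels the Myh6 block stands at 17.2 and 19.8 CPM per kb above the Myh7 peaks, and in the negative control the Myh7 main peak, at 24.2 CPM per kb, stands above the Myh6 block at 19.6.

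The stretch between the main peaks of Myh6 and Myh7 holds peaks assigned to Mir208b and to the unnamed locus Gm31251. Since miR-208b lies within Myh7, this stretch is not simply the space between the genes, and its peaks may lie within Myh7. The Mir208b peak nearest to Myh6 starts after a gap of 272 bp, so it borders the Myh6 block. This peak (55209685 to 55210288) held 4.60 and 7.37 CPM in knockdown, 8.44 and 8.68 CPM in control and 8.19 CPM in the negative control (log2 fold change -0.48, limma adjusted p = 0.0716). The next, at 55210537 to 55212404, held 13.2 and 14.8 CPM in knockdown, 20.7 and 15.6 CPM in control and 23.0 CPM in the negative control (-0.34, limma adjusted p = 0.0797). The last, at 55212827 to 55213778, held 5.68 and 6.21 CPM in knockdown, 9.73 and 7.53 CPM in control and 24.8 CPM in the negative control (-0.46, limma adjusted p = 0.0893). At all 3 Mir208b peaks both knockdown libraries were below both control libraries, and none passed the threshold. No overlap with knockdown below was also seen at 35.4% of all tested peaks. No peak in the table is assigned to Mir208a or to the antisense transcript Mhrt.

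Within 100 kb of the Myh6 and Myh7 main peaks there were 27 peaks, all tested. Of these, 1 was called lower (Myh6 itself) and 0 were called higher, beside 1.63% lower and 1.33% higher over all tested peaks. Both knockdown libraries lay below both control libraries at 8 of the 27, where 35.4% of all tested peaks were. From Myh6 to the Ngdn peak, all 9 peaks in between had a negative log2 fold change. The 17 peaks farther out on either side had mixed signs, 9 negative and 8 positive, between -0.57 and 0.18, and the groups did not overlap at 3 with knockdown below and 2 with knockdown above. The highest of the 9 averaged 16.1 CPM over the H3K4 libraries, while outer peaks reach 85.2 CPM (Bcl2l2). Low peaks leaned negative in general, with a median log2 fold change of -0.14 over all tested peaks and 0.05 over those of at least 20 CPM. Whether the signs follow position or peak height was not tested. Ngdn, beyond Myh7, averaged 58.3 ± 0.261 CPM in knockdown and 52.7 ± 0.200 CPM in control (SD, n = 2 each), with 38.3 CPM in the negative control, a log2 fold change of 0.14 (limma adjusted p = 0.283). The peaks next to the Myh6 peak on its other side are assigned to Gm52092, and whether they lie within the Myh6 gene was not determined. The main peak of Gm52092 averaged 19.7 ± 3.18 CPM in knockdown and 18.5 ± 0.473 CPM in control, with 34.6 CPM in the negative control (log2 fold change 0.08), while 3 of the other Gm52092 peaks were negative (-0.46, -0.11 and -0.03). Between the Myh6 and Ngdn peaks, 8 of 9 peaks were below the negative control in the control libraries.

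Myh7b, a slow-type heavy chain and the host of miR-499, was lower in knockdown. Its main peak of 1316 bp (chromosome 2, 155454779 to 155456094) held 8.97 and 9.27 CPM in knockdown, 12.2 and 14.1 CPM in control and 33.0 CPM in the negative control (95% interval 27.5 to 39.4). The H3K4 groups did not overlap, and both lay far below the negative control. The mean of 9.12 ± 0.210 CPM in knockdown and 13.1 ± 1.36 CPM in control (SD, n = 2 each) gave a log2 fold change of -0.48 with an SE of 0.13 (limma adjusted p = 0.0203). The fold change stayed negative in all 18 alternative settings, between -0.58 and -0.06, but passed in 6 of them. The call was lost with any 1 library left out (adjusted p = 0.136 and 0.170 without knockdown libraries 3 and 4, 0.0546 and 0.266 without control libraries 3 and 4).
The other Myh7b peaks lie beside it at lower coordinates. The peak at 155453367 to 155454330 held 5.17 and 5.18 CPM in knockdown, 8.71 and 6.47 CPM in control and 21.4 CPM in the negative control (log2 fold change -0.46, limma adjusted p = 0.111). The peak at 155454350 to 155454736 held 2.72 and 2.35 CPM in knockdown, 5.08 and 3.47 CPM in control and 14.8 CPM in the negative control (-0.56, limma adjusted p = 0.145). Neither passed, and at both the groups did not overlap. The Mir499 peak that was tested (155471138 to 155471574) held 1.79 and 1.51 CPM in knockdown, 1.66 and 2.47 CPM in control and 7.40 CPM in the negative control, and its H3K4 groups overlapped.

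Myl2, the ventricular regulatory light chain whose phosphorylation tunes contraction, had 2 broad peaks and both were well below the negative control. The main peak (chromosome 5, 122238895 to 122243782, 4888 bp) held 58.4 and 57.2 CPM in knockdown, 62.7 and 63.8 CPM in control and 125 CPM in the negative control (95% interval 114 to 136.8). Knockdown lay below control without overlap, and the log2 fold change of -0.13 (SE 0.07) did not pass (limma adjusted p = 0.330). The second broad peak (122230721 to 122236843) held 56.7 and 52.7 CPM in knockdown, 59.3 and 63.1 CPM in control and 123.4 CPM in the negative control, and gave -0.16 (limma adjusted p = 0.213). A small peak at 122223364 to 122223955 held 1.60 and 1.48 CPM in knockdown, 3.96 and 2.79 CPM in control and 11.6 CPM in the negative control (-0.77, limma adjusted p = 0.0586).

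Myl3, the ventricular essential light chain, was the member with groups closest together. Its main peak (chromosome 9, 110591981 to 110593858) held 32.3 and 28.4 CPM in knockdown, 30.2 and 31.5 CPM in control and 34.6 CPM in the negative control. The knockdown libraries lay on both sides of the control pair, and the log2 fold change was -0.03 (95% interval -0.20 to 0.15, limma adjusted p = 0.928). Its second peak (110594080 to 110596440) held 27.4 and 25.6 CPM in knockdown, 28.0 and 29.4 CPM in control and 31.2 CPM in the negative control (-0.11, limma adjusted p = 0.553).

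Myl4, the atrial essential light chain, which fetal ventricles also express, had 1 broad peak of 6535 bp (chromosome 11, 104467074 to 104473608). It held 48.9 and 50.7 CPM in knockdown, 52.8 and 55.9 CPM in control and 71.9 CPM in the negative control. The groups did not overlap, and the log2 fold change of -0.12 (SE 0.07) did not pass (limma adjusted p = 0.373). Myl7, the atrial regulatory light chain, had a main peak of 2742 bp (chromosome 11, 5846210 to 5848951) with 26.97 and 27.13 CPM in knockdown, 28.17 and 27.05 CPM in control and 51.5 CPM in the negative control. These groups overlapped, and the log2 fold change was -0.03 (95% interval -0.21 to 0.15, limma adjusted p = 0.920).

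The ratio of atrial to ventricular light chains differed between knockdown and control by less than the spread between libraries. The summed main peaks of Myl4 and Myl7 over those of Myl2 and Myl3 gave 0.836 and 0.909 in knockdown, 0.872 and 0.871 in control and 0.773 in the negative control. The control libraries fell between the knockdown libraries. Per kb of peak the atrial sum was 8.18 and 8.39 CPM in knockdown, 8.73 and 8.95 CPM in control and 13.3 CPM in the negative control. The ventricular sum per kb was 13.4 and 12.7 CPM in knockdown, 13.7 and 14.1 CPM in control and 23.6 CPM in the negative control. The ventricular genes thus held more signal per kb in each library, the negative control included. Among the essential chains, the ratio of Myl4 to Myl3 was 1.51 and 1.79 in knockdown, 1.75 and 1.78 in control and 2.08 in the negative control. Among the regulatory chains, the ratio of Myl7 to Myl2 was 0.462 and 0.474 in knockdown, 0.449 and 0.424 in control and 0.412 in the negative control. The mean ratios of the 2 pairs thus differed in opposite directions, which was not tested. For Myl4 to Myl3 the lower knockdown mean rests on knockdown library 3, as library 4 lay above both control libraries. The log2 difference was -0.10 for Myl4 to Myl3, where the groups overlapped, and 0.10 for Myl7 to Myl2, where they did not.

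**Figure D3:**
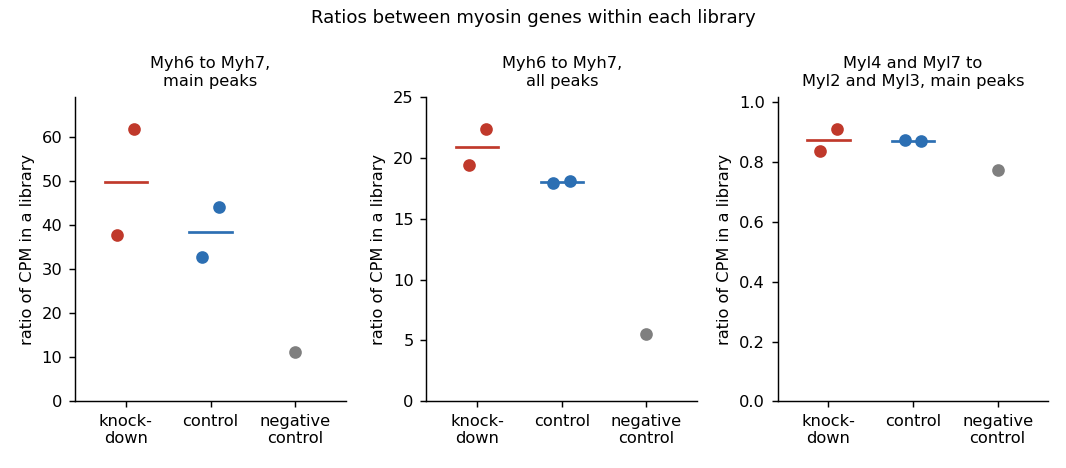
Ratios of CPM between genes within each library (y axes), for knockdown, control and negative control, with 1 point per library and a line at the mean of each pair. The Myh6 to Myh7 ratio of main peaks spreads between 32.8 and 61.6 in the H3K4 libraries and is 11.2 in the negative control, and the light chain ratio lies between 0.773 and 0.909 in all 5 libraries.

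Mybpc3, a protein of the thick filament that restrains how myosin heads engage actin, was lower in knockdown beside Myh6. Its main peak of 8935 bp (chromosome 2, 90947269 to 90956203) held 128.8 and 132.9 CPM in knockdown, 146.0 and 157.9 CPM in control and 126.0 CPM in the negative control. Both knockdown libraries were below both control libraries and close to the negative control. The mean of 130.8 ± 2.86 CPM in knockdown and 152.0 ± 8.43 CPM in control (SD, n = 2 each) gave a log2 fold change of -0.21 with an SE of 0.05 (limma adjusted p = 0.00344). The call was lost without knockdown library 3 (adjusted p = 0.0781), without control library 4 (adjusted p = 0.242) and with TMM, and the sign turned with median centring (0.03), narrow background peaks (0.24) and DESeq2 (0.00). The ratio of Myh6 to Mybpc3 within a library was 1.57 and 1.49 in knockdown, 1.56 and 1.48 in control and 1.81 in the negative control, so the H3K4 groups overlapped. A smaller Mybpc3 peak (90945327 to 90946505) held 13.2 and 13.6 CPM in knockdown, 15.5 and 15.3 CPM in control and 16.1 CPM in the negative control (-0.19, limma adjusted p = 0.410).

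Mylk3, the cardiac kinase that phosphorylates Myl2, had the main peak farthest above the negative control and the most peaks of any member, 10. Its main peak of 9596 bp (chromosome 8, 86083822 to 86093417) held 114.8 and 115.9 CPM in knockdown, 123.0 and 128.6 CPM in control and 84.0 CPM in the negative control. The groups did not overlap, and the log2 fold change of -0.12 (SE 0.05) did not pass (limma adjusted p = 0.211), though it did with quantile normalization (-0.18, adjusted p = 0.0049) and cyclic loess (-0.21, adjusted p = 0.0018). A second broad Mylk3 peak, 86102793 to 86109761, held 60.5 and 61.4 CPM in knockdown, 72.4 and 70.5 CPM in control and 69.8 CPM in the negative control. This peak was lower in knockdown (log2 fold change -0.23, SE 0.07, limma adjusted p = 0.0321), a call lost with any 1 library left out and with TMM, and reversed in sign with median centring (0.01) and narrow background peaks (0.22).

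Over the 28 other member peaks that were tested, 1 was called lower, this one, and 0 higher, beside 1.63% lower and 1.33% higher over all tested peaks. Knockdown was below control without overlap at 13 of the 28 and above at 0, where 35.4% and 12.1% of all tested peaks were. Their log2 fold changes ran between -0.78, at a Myl4 peak (104463609 to 104464141), and 0.12, at a Mylk3 peak (86094775 to 86095014). The Myl4 peak held 1.17 and 0.612 CPM in knockdown and 2.14 and 2.32 CPM in control, and did not pass (limma adjusted p = 0.135). At the Mylk3 peak knockdown held 1.64 and 0.740 CPM and control 0.909 and 1.05 CPM (limma adjusted p = 0.906). The median over the 28 peaks was -0.18. Most are small: the main peak held 100% of the signal of Myh6 summed over its peaks and the 4 H3K4 libraries, 85.4% of Mybpc3, 82.9% of Myl4 and 71.7% of Myl7, but 58.5% of Mylk3, 53.2% of Myh7b, 52.6% of Myl3, 50.1% of Myl2 and 46.3% of Myh7.

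**Figure D4:**
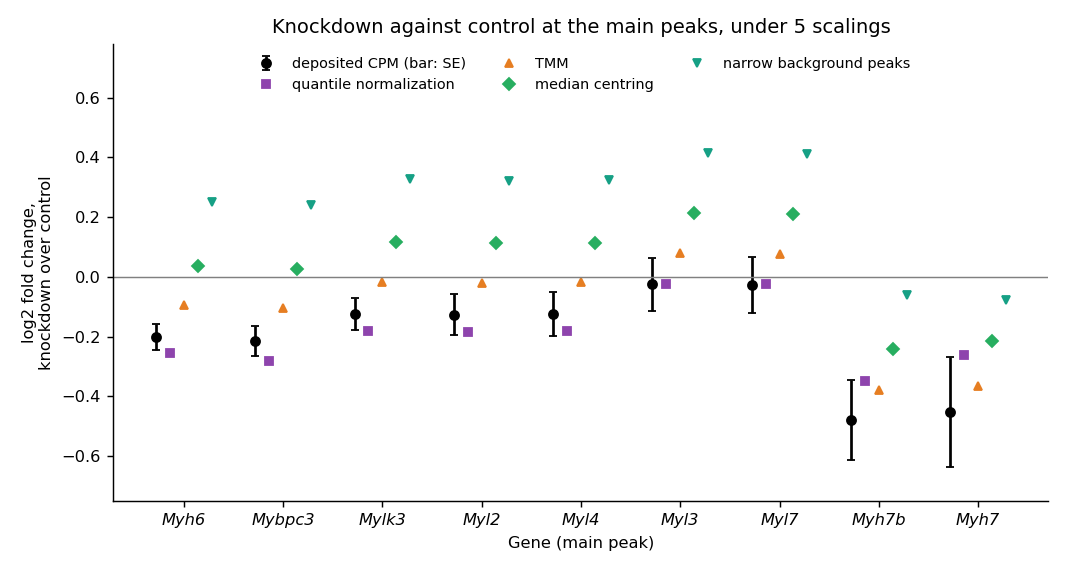
Log2 fold change of knockdown over control at each main peak (y axis), on the deposited CPM (black, with SE from limma) and under 4 other scalings. On the deposited CPM all 9 points are below 0, and with median centring or narrow background peaks only Myh7b and Myh7 are.

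Against the negative control, few members stood out. None of the 9 main peaks exceeded it by 2-fold or more in either group, where 17.8% of the main peaks of all genes did in knockdown and 14.6% in control. Over all tested peaks the shares were 6.81% in knockdown and 5.55% in control. Below it lay 7 of 9 members in knockdown and 6 of 9 in control, beside 56.1% in knockdown and 56.2% in control of the main peaks of all genes. With all peaks of each gene summed, 9 of 9 in knockdown and 6 of 9 in control were below it, and Mylk3 and Mybpc3 in knockdown changed sides, at -0.14 and -0.18 on the log2 scale. By its main peak Mylk3 stood highest, at 1.37 times the negative control in knockdown and 1.497 times in control. Mybpc3 stood at 1.04 times in knockdown and 1.21 times in control, and its knockdown mean lay within the negative control's counting interval (115.0 to 137.9 CPM). Myh7 stood lowest, at 0.211 times in knockdown and 0.301 times in control.
Among peaks of at least 5 kb, to which Myh6, Mybpc3, Mylk3 and Myl4 belong, 45.7% in knockdown and 40.6% in control exceeded the negative control by 2-fold or more, and 9.71% in control were below it. Of the 28 other member peaks, all were below it in knockdown and 27 in control, beside 82.7% of all tested peaks in control. These ratios rest on 1 negative control library and on its scaling. With libraries scaled on peaks under 500 bp instead, 7 of 9 members in knockdown and 5 of 9 in control exceeded it by 2-fold or more, and 1 in knockdown and 0 in control were below.

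**Figure D5:**
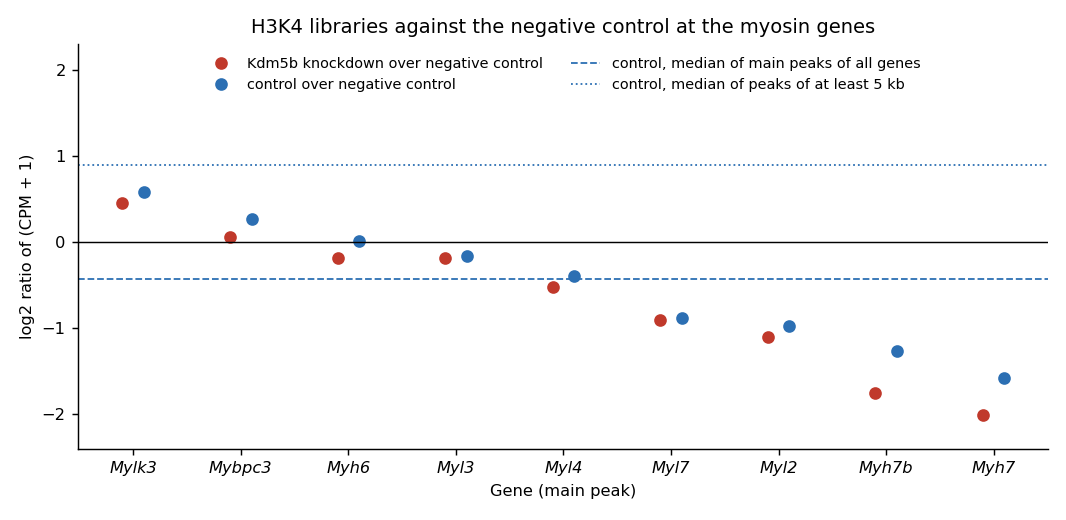
Log2 ratio of H3K4 libraries to the negative control on the CPM + 1 scale (y axis) at each main peak, for knockdown and control, with the control medians of the main peaks of all genes (dashed) and of peaks of at least 5 kb (dotted). Mylk3 and Mybpc3 lie above 0 in both groups, Myh7b and Myh7 lie lowest, and each knockdown point lies at or below its control point.

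Per kb of peak, the order of levels in knockdown was Myh6, Myl3, Mybpc3, Mylk3, Myl2, Myl7, Myl4, Myh7b and Myh7, and of these neighbours only Myh6 and Myl3 overlapped between libraries. In control the order was Myh6, Mybpc3, Myl3, Mylk3, Myl2, Myl7, Myh7b, Myl4 and Myh7, where Mybpc3 and Myl3, Mylk3 and Myl2, Myl7 and Myh7b, and Myl4 and Myh7 overlapped. In the negative control Myl2 led with 25.6 CPM per kb, followed by Myh7b with 25.1 and Myh7 with 24.2, and Mylk3 was last with 8.76.

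Other genes of the sarcomere give the surroundings of these values, as means ± SD over 2 libraries each. The counts below stand against 1.98% lower and 3.4% higher over the main peaks of all genes. These lists were chosen with earlier results of these data known. None of the calls in the sarcomere, myosin, kinase and regulator lists held with TMM, median centring or DESeq2. Among 13 tested partners of the thick filament and M-band, 2 were lower and 0 higher, with a median log2 fold change of -0.13, beside -0.01 over the main peaks of all genes. Unc45b, the myosin chaperone, averaged 61.9 ± 2.34 CPM in knockdown and 73.6 ± 1.93 CPM in control (-0.25, limma adjusted p = 0.0137). All 13 were negative, and the list's median was -0.02 with TMM but turned positive with median centring (0.11), narrow background peaks (0.32) and DESeq2 (0.08).

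In the thin filament, 3 of 9 tested genes were lower and 0 higher, with a median of -0.08 that was 0.03 with TMM and 0.16 with median centring. Tmod1, which caps the actin filament, averaged 108.5 ± 5.17 CPM in knockdown and 128.6 ± 2.98 CPM in control (-0.24, limma adjusted p = 0.0013). Tnni1, the fetal troponin I, was lower by the larger step (-0.33, limma adjusted p = 0.0039), and Tnni3, the adult form, gave -0.21 (limma adjusted p = 0.0203).

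Of the 7 light chain kinases and phosphatase subunits, 1 was lower and 0 higher, with a median of 0.03 that was -0.02 with cyclic loess. That gene was Mylk, the kinase of smooth muscle, with 24.99 ± 2.20 CPM in knockdown and 31.01 ± 1.201 CPM in control (-0.30, limma adjusted p = 0.0414). Of 8 smooth muscle and non-muscle myosins 1 was higher and 0 lower, with a median of -0.04 that was 0.07 with TMM. It was Myh10, a non-muscle heavy chain, with 162.2 ± 11.4 CPM in knockdown, 145.0 ± 6.93 CPM in control and 50.2 CPM in the negative control (0.16, limma adjusted p = 0.0413). Of the 10 other striated muscle myosins, 3 had a peak and none passed. Of 17 tested regulators of myosin genes 4 were higher and 0 lower, with a median of 0.08 that was 0.19 with TMM and -0.05 with cyclic loess. Mef2c, a MADS factor of muscle genes, averaged 170.4 ± 0.652 CPM in knockdown and 144.5 ± 6.67 CPM in control (0.24, limma adjusted p = 0.0004). Gata6, Hand2 and Med13, a Mediator subunit and known mouse target of miR-208a, were the other three.

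Markers of the chambers and of other heart cells were set beside the members, since both the light chains and the heavy chains differ between them. The same shares of the main peaks of all genes, 1.98% lower and 3.4% higher, apply here. The marker lists were chosen with earlier results of these data known, so counts above these shares are not independent support. Among 7 tested atrial markers 1 was lower and 0 higher (Nppa, the atrial natriuretic peptide, with 19.9 ± 0.451 CPM in knockdown and 26.7 ± 0.608 CPM in control, -0.41, limma adjusted p = 0.0047). Among 6 ventricular markers 1 was lower and 0 higher (Irx4, with 75.7 ± 2.44 CPM in knockdown and 88.4 ± 1.85 CPM in control, -0.22, limma adjusted p = 0.0192). Neither call held with TMM. The median log2 fold change was -0.23 over the atrial markers, with 6 of 7 negative, and -0.06 over the ventricular markers, with 5 of 6 negative. With TMM these medians were -0.13 and 0.05, and with median centring 0.004 and 0.18.
Some markers of 3 other cell types were higher in knockdown. Epicardial markers were higher at 7 of 8 genes (4 of 8 with TMM and with median centring, 3 with DESeq2, 0 with narrow background peaks), and their summed level was 504.2 to 504.9 CPM in knockdown, 405.8 to 411.5 CPM in control and 819.4 CPM in the negative control. Fibroblast markers were higher at 5 of 8 (1 with TMM, 2 with DESeq2, 0 with median centring and with narrow background peaks), with sums of 528.2 to 537.2 CPM in knockdown, 423.8 to 451.2 CPM in control and 569.4 CPM in the negative control. Smooth muscle and pericyte markers were higher at 3 of 6 and had negative log2 fold changes at the other 3, and none was called with TMM, median centring or DESeq2, with sums of 348.7 to 358.6 CPM in knockdown, 289.9 to 312.2 CPM in control and 279.8 CPM in the negative control. None of the 7 endothelial and 3 tested immune markers passed, with sums of 289.6 to 290.1 and 2.64 to 3.66 CPM in knockdown of 259.1 to 266.1 and 5.16 to 6.09 CPM in control, and of 393.7 and 15.1 CPM in the negative control. No marker with a peak was at 0 in all H3K4 libraries. The epicardial median log2 fold change of 0.45, the fibroblast median of 0.26, the endothelial median of 0.16 and the smooth muscle median of 0.11 were positive under every scaling run. The immune median on the deposited CPM was -0.71, with all 3 tested markers negative at the low levels given above. TMM, median centring, narrow background peaks and DESeq2 also raise the median of all peaks, by 0.07 to 0.31. Under these a positive median could hardly turn negative. Some of these marker levels differed between knockdown and control on the deposited CPM. Whether this bears on the lower peaks of Myh6, Mybpc3 and Myh7b was not tested.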

How the data were processed

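H3K4-enriched chromatin of 2 Kdm5b knockdown and 2 control samples, and 1 negative control, was profiled by CUT&RUN. Trim Galore and the build GRCm39 are named, per the submitters' processing notes. How reads were aligned, how those matching several places were treated, how peaks were called and how they were assigned to genes is not given in the sources used here. A single deposited table holds the authors' CPM for each peak and library. In it 2 lines had been emptied for this work, and 0 of its value columns were left out. Column numbers (3 and 4) differ from those in the sample titles, so columns were mapped to groups only. All values were whole multiples of 1 read (100% within a tolerance of 1e-06), so CPM are reads scaled to the library's total over all peaks. Totals were 3784381 to 31068085 reads, and intervals of single libraries cover counting error only.

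The scale of all fold changes is log2(CPM + 1), which understates the change of low peaks. The 58072 of 85275 peaks that reached 1 CPM in 2 or more of the 4 H3K4 libraries were tested with limma 3.58.1 (R 4.3.3; lmFit, eBayes with trend, 2-sided, Benjamini-Hochberg over all tested peaks, threshold 0.05), whose prior degrees of freedom were infinite, so a peak's spread was taken from peaks of like height. The script was tested on simulated data. On the recovered reads, edgeR 4.0.16 with library totals called 712 peaks lower and 634 higher, and DESeq2 1.42.0, also run, left 39406 peaks without an adjusted p. Other settings were no filter, a filter of 5 CPM, pseudocounts of 0.5 and 5, TMM, quantile, cyclic loess, median centring, scaling on peaks under 500 bp below the negative control, no trend, a replicate block and each library left out. The members and lists were chosen with earlier results of these data known. Named genes were all members, the peaks around Myh6 and Myh7, the microRNA genes in members, Kdm5b, and in each list the 2 to 4 genes with the smallest p. Of these, 1 list gene is not reported here. Sequences are from RefSeq tables of GRCm38.p6, another build than that of the peaks, and were not placed on them.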

Additional observations from a re-analysis of the deposited data

How the results depend on the processing

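The counts of calls depended on how the libraries were scaled. Over all tested peaks, where 947 were lower and 773 higher on the deposited CPM, TMM gave 34 lower and 55 higher, median centring 3 and 28, scaling on narrow background peaks and limma without a trend 0 and 0 each (1765 and 8226 peaks at an unadjusted p under 0.05), edgeR with TMM 38 and 51, and DESeq2 3 and 35. With these 6 settings 0 main member peaks (3 before) and 0 other member peaks (1 before) were lower. Quantile normalization called 2 other member peaks. For the genes of the lists (8 lower and 20 higher before), the 6 settings gave 0 lower, with 5 higher for TMM, edgeR with TMM and DESeq2, 4 for median centring and 0 for the other two, and quantile normalization gave 19 lower and cyclic loess 24. With 1 library left out, calls over all peaks were 185 to 476 lower and 155 to 371 higher, main member peaks 0 to 2, other member peaks 0, list genes 1 to 2 lower and 9 to 15 higher, and the log2 difference of the Myh6 to Myh7 ratio -0.0073 to 0.70. A group of 1 library is then assumed to vary like the other.

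The sign of Myh6 turned with median centring (0.036), narrow background peaks (0.25) and DESeq2 (0.012), that of Mybpc3 likewise (0.026, 0.24 and 0.0014), and that of the second Mylk3 peak with median centring (0.014) and narrow background peaks (0.22). Scaling the negative control on peaks under 500 bp gave 7 genes in knockdown and 5 in control at least 2-fold above it (0 and 0 before), and 1 and 0 below it (7 and 6 before). Each of these scalings applies the same factor to all peaks of a library, so the changes follow from the scaling itself. Median centring, for one, moved the median of all peaks by 0.24. Why the libraries differ in how their reads are spread over peaks was not tested. The Myh6 to Myh7 ratio after subtraction of the negative control was not run, since Myh7 lies below it.

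The numbers in the column names may not pair the libraries: same-numbered libraries correlated at r = 0.118 in their deviations, over 2 pairs. With the replicate block, 2275 peaks were lower and 1578 higher, 3 main member peaks and 4 other member peaks were lower, and the log2 difference of the Myh6 to Myh7 ratio stayed 0.35.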
